A study of Mus musculus with 4 samples.

Results

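Intermediate filaments are the rope-like, non-polar filaments of the cytoskeleton, built from proteins that share a central alpha-helical rod. Each cell type uses its own set, so their genes are widely used as markers of lineage. The genes outside the keratin family that were compared here are the lens beaded filament genes Bfsp1 and Bfsp2, the neuronal filament genes Nefl, Nefm, Nefh and Ina, the progenitor gene Nes, the glial gene Gfap, the muscle gene Des and the mesenchymal gene Vim. The 10 genes were chosen by name, with earlier results of these data known. All 10 were found among the 18702 genes listed for each library.

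The libraries were made from total RNA of eye tissue from C57BL/6 mouse embryos. There were 2 libraries from wild-type (Anp32b+/+) embryos and 2 from knockout (Anp32b-/-) embryos, in which the gene of a histone-binding acidic nuclear phosphoprotein is disrupted. The title of the series names ocular development and repression of PAX6 as its subject, and the comparison asks how the filament genes differ when Anp32b is disrupted. Neither the embryonic stage nor the sex, the deleted exons or how many embryos were pooled is given in the sources used here. It is not stated that the 2 libraries of a genotype had separate embryos as their source, and p-values then reflect the spread between these samples alone, possibly a technical one.

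Levels are FPKM values, fragments per kilobase of transcript scaled by each library's total. From the steps between low values the depth was estimated at 17860000 to 18380000 fragments. Anp32b, the targeted gene, stood at 163.18 and 179.12 FPKM for the wild type, against 94.53 and 92.67 FPKM in the knockout, 54.7% of the wild-type mean. Gene-level values do not tell from which exons these reads come. Replicates were close, with a median absolute log2 difference of 0.037 in the wild type and 0.031 in the knockout over the 1448 genes averaging at least 50 FPKM. Differences between groups were tested with limma on log2(FPKM + 1) over the 13887 genes averaging at least 1 FPKM, and an adjusted p (Benjamini-Hochberg over all genes tested) under 0.05 was the threshold. Fold changes on this scale understate the change of genes at low levels.

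Of the 10 filament genes 9 passed the filter on low values, and Nefh did not. All 9 tested genes passed the threshold, 3 higher (Vim, Des and Nes) and 6 lower (Bfsp1, Bfsp2, Gfap, Nefl, Nefm and Ina). The background is high, since 54.6% of all tested genes were called, 33.5% as higher and 21.1% as lower, so being called says little by itself. The same shares are the background of every list of genes below. Those lists were also chosen with earlier results of these data known, so their counts are descriptive. The values of the groups did not overlap in 9 of the 10 genes, and in 77.9% of all tested genes. The sizes differ more from the background. A fall of at least 1 on the log2 scale was called in 4 of the 9 (Bfsp1, Bfsp2, Gfap and Nefl), against 0.828% of all tested genes, and a rise of that size in 0 of the 9, against 1.52% (2.35% in either direction). The median log2 fold change was −0.57 over the 9 genes and 0.04 over all genes tested. Gfap passed the filter only through the wild-type libraries, so these counts describe the genes and support nothing further.

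**Figure D1:**
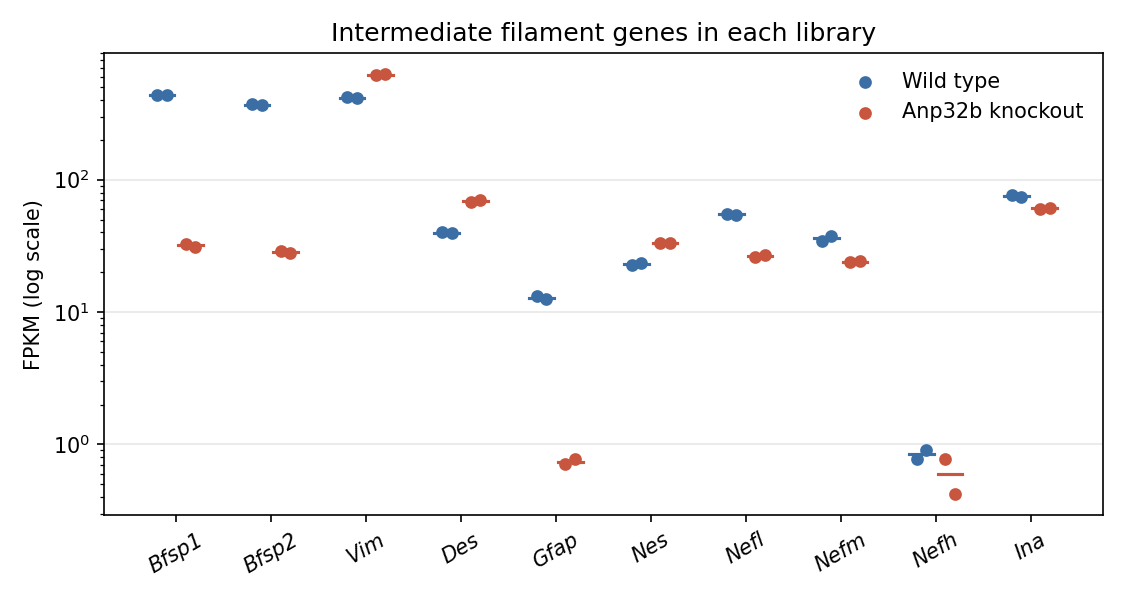
FPKM on a log axis for the 10 filament genes, with 1 point per library (2 wild type in blue, 2 knockout in red) and a bar at each group mean. Bfsp1, Bfsp2 and Gfap are more than 10-fold lower in the knockout libraries, Vim, Des and Nes are higher, and the points of the groups overlap at Nefh.

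The promoters of the 3 genes with the deepest falls are shown because these genes are known from different cell types, lens fibres and glia, and changed by similar factors. The RefSeq table of GRCm38.p6 held a promoter for 7 of the 10 genes, not for Nefl, Nefm or Nefh. Each window is the 250 bases before the annotated start on the minus strand, namely chr2:143863174-143863423 for Bfsp1, chr9:103449177-103449426 for Bfsp2 and chr11:102897201-102897450 for Gfap. Each start is that of the transcript used in the RefSeq table, and longer models begin further upstream, in RefSeq for Bfsp1, in RefSeq and GENCODE for Bfsp2 and in GENCODE for Gfap. Capitals mark 2 motifs, searched on both strands. They are TGCTGA (the half-site of MAF factors) and TGANTCA (the AP-1 core with any base at its centre).
Bfsp1: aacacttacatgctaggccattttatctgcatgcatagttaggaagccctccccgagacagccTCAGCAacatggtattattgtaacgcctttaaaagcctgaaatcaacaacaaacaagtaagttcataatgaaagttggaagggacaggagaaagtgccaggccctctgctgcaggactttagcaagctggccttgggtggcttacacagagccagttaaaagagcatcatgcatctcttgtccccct
Bfsp2: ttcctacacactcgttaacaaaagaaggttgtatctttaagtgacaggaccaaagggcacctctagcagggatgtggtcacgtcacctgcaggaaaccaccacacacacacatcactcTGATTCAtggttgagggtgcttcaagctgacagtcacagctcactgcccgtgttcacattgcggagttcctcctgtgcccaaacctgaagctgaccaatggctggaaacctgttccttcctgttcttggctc
Gfap: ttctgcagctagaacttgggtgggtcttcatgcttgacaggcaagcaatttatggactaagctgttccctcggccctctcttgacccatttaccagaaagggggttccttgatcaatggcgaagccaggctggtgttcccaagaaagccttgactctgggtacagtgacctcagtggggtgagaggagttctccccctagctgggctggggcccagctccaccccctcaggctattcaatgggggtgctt
The Bfsp1 window held a MAF half-site on the strand opposite to the gene, from 187 to 182 bases before the start. The Bfsp2 window held TGATTCA, a match to TGANTCA, from 132 to 126 bases before the start. Its central T differs from the C or G of the AP-1 consensus. The Gfap window held neither motif. TGCTGA was also in the window of Nes, a gene that was higher in the knockout, from 144 to 139 bases before its start. Of 27025 promoter windows of this length in the table, 15.8% held TGCTGA and 6.78% held GAANNTTC (the core of heat shock elements), while 6.87% held TGANTCA. Of the 12 lens markers described further on that have a window, 7 held TGCTGA, 6 held the E-box CAGCTG (in 12.8% of all windows), 5 held TATAAA (in 13%), 5 held the GC box GGGCGG (in 32.9%), 4 held CCAAT (in 34.5%), 2 held CATTGT (in 11%), 1 held TGANTCA and 0 held GAANNTTC. CCAAT was also in the Bfsp2 window, from 38 to 34 bases before the start. GAANNTTC was in none of the 3 printed windows, nor were CATTGT (a SOX core), TATAAA (the box bound by TBP), GGGCGG and CAGCTG. A match describes letters in these windows and is no evidence of a bound site.

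Bfsp1 and Bfsp2 encode filensin and phakinin, the proteins that co-assemble into the beaded filament of lens fibre cells, where alpha crystallins associate with it. Bfsp1 (Entrez 12075, GRCm38 chromosome 2, 143826528 to 143863173, minus strand) stood at 437.28 and 434.98 FPKM in wild-type eyes, against 32.63 and 31.25 FPKM in knockout eyes. Bfsp2 (Entrez 107993, chromosome 9, 103424924 to 103480420, minus strand) stood at 372.13 and 367.08 FPKM for the wild type, against 28.77 and 27.83 FPKM in the knockout. Both genes were high in both wild-type libraries and low in both knockout libraries, with no overlap. On the log2 scale Bfsp1 fell by 3.73 (SE 0.03, limma adjusted p = 2.71e-09). Bfsp2 fell by 3.66 (SE 0.03, limma adjusted p = 2.71e-09). Among the 13887 tested genes only 5 fell further than Bfsp1 and 6 further than Bfsp2. Bfsp2 lies on the opposite strand to the antisense genes 5830418P13Rik and Gm16252, and without knowledge of strand in the counting, reads of such partners cannot be told apart.

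The falls of the partners were nearly equal. Bfsp1 stood at 1.18 and 1.18 times the FPKM of Bfsp2 in wild-type eyes and at 1.13 and 1.12 times in knockout eyes, a difference in the log2 ratio of −0.06 against a spread of 0.009 (SD, n = 2) in the wild type and 0.010 in the knockout. Such a ratio is taken within a library and does not depend on how libraries are scaled. An exact permutation test of 2 libraries against 2 cannot go below p = 0.3333, the value it gave for 11 of the 12 ratios examined, this one included.

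A list of 16 lens markers, among them Cryaa, Cryab, Crybb1, Cryba1, Mip, Lim2, Gja3, Foxe3, Prox1, Maf, Hsf4, Lctl, Lgsn, Grifin and Sox1, moved with them. All 16 were lower, with a median log2 fold change of −2.74 and a range of −3.50 to −1.01, and none was at 0. Lctl and Lgsn (knockout means of 0.905 and 0.28 FPKM) passed the filter only through the wild-type libraries. The count thus describes the genes and supports nothing further. Summed over the list, the level was 31047 and 31719 FPKM in the wild type and 3124 and 3149 FPKM in the knockout. Lim2, a membrane protein of fibre cells, went from 410.22 and 425.27 FPKM to 35.55 and 36.69 FPKM. Bfsp1 and Bfsp2 lay below every lens marker of the list on the log2(FPKM + 1) scale, but by ratio of means Lctl, a klotho family gene, fell further than both, from 15.2 and 14.17 FPKM to 1.02 and 0.79 FPKM. Relative to Cryaa, the alpha A crystallin gene, the level of Bfsp1 was 0.033 and 0.032 in the wild type and 0.024 and 0.023 in the knockout, a difference of −0.48 in the log2 ratio (SD 0.04 in the wild type and 0.06 in the knockout, n = 2). The level of Bfsp2 relative to Cryaa was 0.028 and 0.027 in the wild type and 0.021 and 0.020 in the knockout, a difference of −0.41 (SD 0.05 in each group). Fewer lens cells and less RNA per lens cell cannot be told apart in bulk tissue, and the part of lens tissue in these values was not tested.

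The genes nearest to the beaded filament genes in pattern were gamma crystallins. Likeness was the Euclidean distance between log2(FPKM + 1) profiles centred on their mean over the 4 libraries, among 10044 genes averaging at least 5 FPKM. For Bfsp1 the nearest were Cryga (distance 0.050) and Crygd (0.10), and for Bfsp2 they were Cryge (0.073) and Cryga (0.080). Cryga stood at 7869 and 7624 FPKM for the wild type, against 582.3 and 582.1 FPKM in the knockout. The gamma crystallins are close paralogs, so the separate values of these copies are uncertain.

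Gfap encodes the glial fibrillary acidic protein of astrocytes and reactive Muller glia, and the protein has also been described in the lens epithelium of the mouse. Gfap (Entrez 14580, chromosome 11, 102887336 to 102900912, minus strand) stood at 13.13 and 12.46 FPKM in wild-type eyes, against 0.71 and 0.77 FPKM in knockout eyes. The groups did not overlap, and the knockout had 5.78% of the wild-type mean, a 17.3-fold lower level on the FPKM scale. Gfap changed by −2.99 on the log2(FPKM + 1) scale (SE 0.07, limma adjusted p = 4.79e-07), and by −3.94 with a pseudocount of 0.1, since the knockout level lies under 1 FPKM. By ratio of means Gfap fell further than Bfsp1 (13.7-fold) and Bfsp2 (13.1-fold). The ratio of Gfap to Bfsp1 was 0.030 and 0.029 in the wild type and 0.022 and 0.025 in the knockout, a difference of −0.34 in the log2 ratio (SD 0.05 and 0.13, n = 2).

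Glial markers went both ways. Of 15 listed glial and Muller glial markers 13 were tested, 6 were higher, 5 were lower and 2 were not past the threshold, with a median of −0.03. The shares over all genes tested were 33.5% higher and 21.1% lower. Their summed level was 547.6 and 556.6 FPKM in the wild type and 552.1 and 552.4 FPKM in the knockout, and none was at 0. The largest fall was that of Aldoc, a glycolytic enzyme of astrocytes, from 16.04 and 15.72 FPKM to 8.52 and 8.36 FPKM. Clu (−0.37), the potassium channel gene Kcnj10 (−0.62), the glutamine synthetase gene Glul (−0.24) and the retinaldehyde-binding protein gene Rlbp1 (−0.18) also fell. The fall of Rlbp1 missed the threshold with TPM (adjusted p = 0.302), without wild-type replicate 1 (adjusted p = 0.0777) or without knockout replicate 2 (adjusted p = 0.0845). The hyaluronan receptor gene Cd44 (0.73) and the Schwann cell gene Sox10 (0.67) rose. The astrocyte water channel gene Aqp4 and the connexin gene Gjb6, named after their values were seen, were below the level tested, Aqp4 at 0.26 and 0.41 FPKM in the wild type and 0.14 and 0.23 FPKM in the knockout. The genes nearest to Gfap in pattern were the lens genes Lenep (distance 0.12, from 110.18 and 110.97 FPKM to 12.78 and 14.62 FPKM) and Cryba2 (distance 0.15). These distances were taken on log2(FPKM + 1), which understates the fall of Gfap, so this likeness depends on the pseudocount. The part of glia or lens in the level of Gfap was not tested. Gm26668, a long non-coding RNA gene on the opposite strand, spans Gfap.

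**Figure D2:**
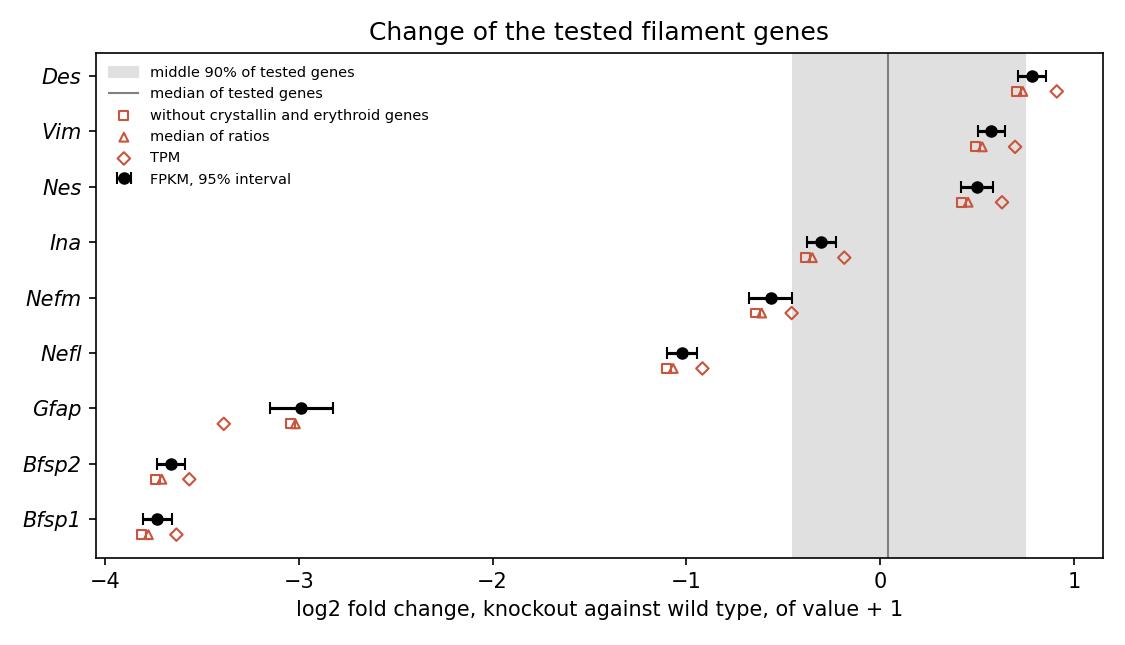
Log2 fold change of the 9 tested filament genes with its 95% interval (black), and the point values under 3 other scalings (red, open), with the middle 90% of all tested genes shaded from −0.45 to 0.75. Bfsp1, Bfsp2, Gfap and Nefl lie far to the left of the shaded range, and no scaling moves a gene across 0.

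Nefl, Nefm and Nefh encode the light, medium and heavy neurofilament proteins, which fill axons and set their calibre, and Ina encodes alpha-internexin, which co-assembles with them and is known from early neurons. In the eye these genes are best known from retinal ganglion cells, whose axons form the optic nerve. Nefl (Entrez 18039, chromosome 14, 68083863 to 68089095, plus strand) stood at 55.01 and 54.28 FPKM in wild-type eyes, against 25.99 and 26.82 FPKM in knockout eyes. Nefm (Entrez 18040, chromosome 14, minus strand) stood at 34.45 and 37.52 FPKM for the wild type, against 23.77 and 24.17 FPKM in the knockout. Ina (Entrez 226180, chromosome 19, 47014698 to 47025327, plus strand) stood at 75.97 and 74.22 FPKM for the wild type, against 59.75 and 61.61 FPKM in the knockout. In all 3 genes both knockout libraries lay below both wild-type libraries.

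The falls were unequal. Nefl fell by 1.02 on the log2 scale (SE 0.03, limma adjusted p = 1.76e-06), Nefm by less (−0.57, SE 0.05, adjusted p = 7.69e-05) and Ina by less again (−0.30, SE 0.03, adjusted p = 0.000245). Their 95% intervals, from −1.10 to −0.94 for Nefl, from −0.68 to −0.46 for Nefm and from −0.38 to −0.23 for Ina, did not overlap. Within libraries, Nefm stood at 0.63 and 0.69 times the FPKM of Nefl in the wild type and at 0.91 and 0.90 times in the knockout, a rise of 0.46 in the log2 ratio (SD 0.10 and 0.02, n = 2). Ina stood at 1.38 and 1.37 times Nefl in the wild type and at 2.30 and 2.30 times in the knockout, a rise of 0.74 (SD 0.010 and 0.0008). Both ratios were higher in each knockout library than in each wild-type library, whatever the scaling of libraries.

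Nefh, the subunit that appears last in maturing axons, was the only neuronal filament gene that did not pass the filter on low values. It stood at 0.78 and 0.90 FPKM for the wild type, against 0.78 and 0.42 FPKM in the knockout, so the groups overlapped. With its single annotated transcript of 3994 bases and the estimated depths, these levels correspond to about 57, 65, 57 and 30 fragments. Tested without a filter, it had a log2 fold change of −0.21 (SE 0.12, limma adjusted p = 0.261), and with TPM of −0.24 (SE 0.20, adjusted p = 0.323). By group means Nefh retained 71.4% of its level in knockout eyes, between Nefm (66.6%) and Ina (80.8%). No change was detectable in Nefh at this level, which does not show that it was unchanged.

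Markers of neurons and ganglion cells were lower in the same libraries. Of 19 markers 15 were lower, 0 were higher and 4 were not past the threshold, with a median of −0.35 and a range of −1.03 to 0.03, and none was at 0. Added up, these markers came to 1036 and 1048 FPKM in the wild type and 786.9 and 793.5 FPKM in the knockout. Sncg, the gamma-synuclein gene, had the lowest value of the list at −1.03, followed by the synaptotagmin gene Syt1 (−0.82), so that Nefl (−1.02) lay beside Sncg, within the SE of either value. The synaptic gene Snap25 (−0.46) and the ubiquitin hydrolase gene Uchl1 (−0.49) fell by amounts nearer to that of Nefm. Ina lay close to the median of the list. The part of neuron number in the filament values was not tested.

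Nefl and Nefm are neighbours, 30.4 kb apart in the RefSeq annotation of GRCm38.p6, and lie on opposite strands. A longer GENCODE model of Nefm (chromosome 14, 68082590 to 68124846) runs across Nefl, and the same limit on strand applies. In pattern over the 4 libraries, the nearest gene to Nefl was Prox1, a homeobox gene of lens and retina (distance 0.017), which went from 22.16 and 21.79 FPKM to 10.25 and 10.64 FPKM. The nearest gene to Nefm was the histone gene H2bc4 (0.025), and those to Ina were the cell division genes Cdc25b (0.005) and Aurkb (0.015). Cdc25b stood at 32.89 and 32.12 FPKM for the wild type, against 25.65 and 26.48 FPKM in the knockout.

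**Figure D3:**
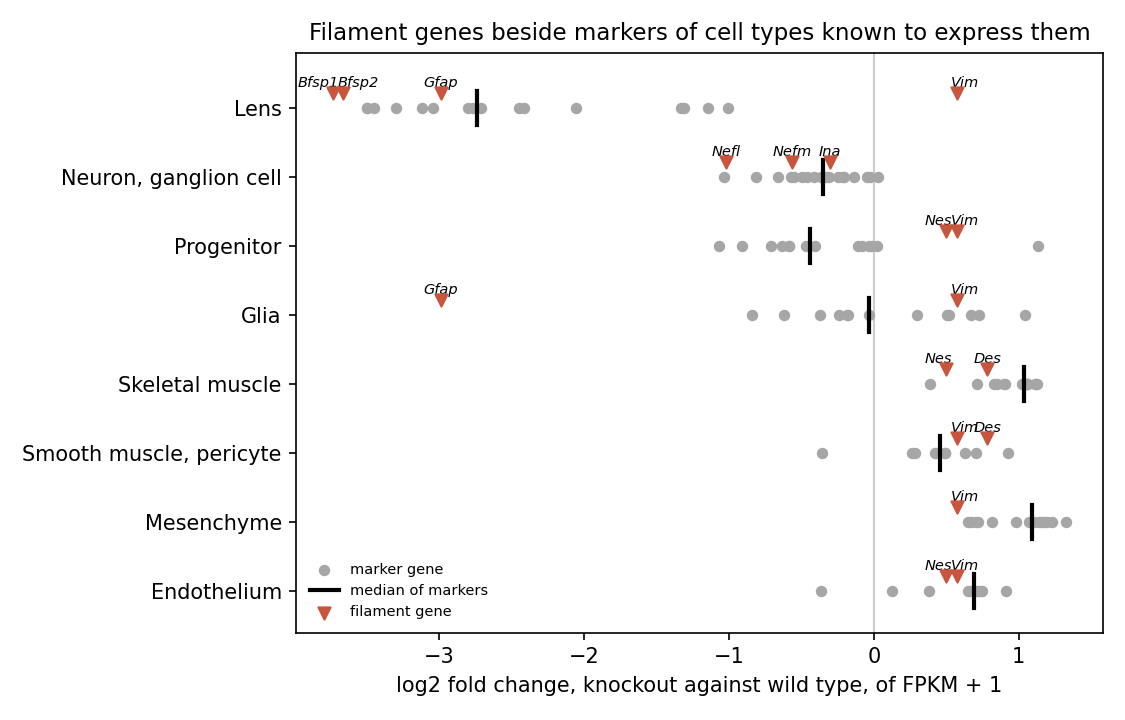
Log2 fold change of the filament genes (red triangles) beside the tested markers of each cell type (grey points, black bar at their median). Bfsp1 and Bfsp2 lie left of every lens marker, and Nes and Vim lie right of all progenitor markers but Sfrp2. Gfap lies far left of every glial marker and, on this scale of FPKM + 1, within the lens range. The scale understates the fall of Gfap, which was 17.3-fold by ratio of means.

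Nes encodes nestin, a filament protein of neural progenitors that co-assembles with vimentin and is also known from developing muscle and vessel walls. Nes (Entrez 18008, chromosome 3, 87971078 to 87980451, plus strand) stood at 22.76 and 23.62 FPKM in wild-type eyes, against 33.10 and 33.31 FPKM in knockout eyes. The knockout values were higher in both libraries, with a log2 fold change of 0.50 (SE 0.04, limma adjusted p = 4.17e-05). Progenitor markers went the other way. Of 14 markers of neural and retinal progenitors 9 were lower, 1 was higher and 4 were not past the threshold, with a median of −0.44. The sum over the list was 1573 and 1582 FPKM in the wild type and 1047 and 1056 FPKM in the knockout, and none was at 0. The cyclin gene Ccnd1 fell by 0.91 on the log2 scale and the fatty acid-binding protein gene Fabp7 by 1.07. The exception was Sfrp2, a secreted Wnt modulator, which rose from 35.05 and 33.24 FPKM to 76.38 and 75.83 FPKM. Endothelial markers were higher, 8 of 10 with a median of 0.69, against 1 lower (the VEGF receptor gene Kdr, −0.37) and 1 not past the threshold. In sum they came to 168.8 and 167.4 FPKM in the wild type and 214.2 and 214.3 FPKM in the knockout. Pecam1 (0.91), Cdh5 (0.71), Eng (0.75) and Emcn (0.72) had the lowest p-values among them. The part of these cell types in the level of Nes was not tested. The genes nearest to Nes in pattern were the muscle gene Stac3 (distance 0.012) and the kinase gene Rps6ka1 (0.013).

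Vim encodes vimentin, the filament protein of mesenchyme, endothelium and leukocytes, which is also made by progenitors, Muller glia and lens cells. Vim (Entrez 22352, chromosome 2, 13573927 to 13582826, plus strand) stood at 418.76 and 415.82 FPKM in wild-type eyes, against 615.10 and 628.95 FPKM in knockout eyes. Both knockout values lay above both wild-type values, with a log2 fold change of 0.57 (SE 0.03, limma adjusted p = 9.87e-06). All 14 mesenchyme and connective tissue markers were higher, with a median of 1.09 and a range of 0.65 to 1.33, so Vim rose by less than any of them. The mesenchyme list summed to 2209 and 2194 FPKM in the wild type and 4496 and 4534 FPKM in the knockout. Lum, a proteoglycan of stroma, rose from 76.89 and 77.04 FPKM to 172.90 and 176.49 FPKM, and the collagen genes Col1a1 and Col1a2 by 1.16 and 1.19. The part of mesenchyme in the level of Vim was not tested. The ratio of Vim to Nes was 18.4 and 17.6 in the wild type and 18.6 and 18.9 in the knockout, a difference of 0.06 in the log2 ratio beside a wild-type spread of 0.05 (SD, n = 2). The genes nearest to Vim in pattern were Ehbp1l1 (distance 0.013) and the Wnt receptor gene Fzd7 (0.016).

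Des encodes desmin, which links the Z-discs of muscle fibres and is found in skeletal, heart and smooth muscle and in pericytes. Des (Entrez 13346, chromosome 1, 75360329 to 75368579, plus strand) stood at 40.02 and 39.43 FPKM in wild-type eyes, against 68.23 and 69.95 FPKM in knockout eyes. The groups did not overlap, and the log2 fold change of 0.78 (SE 0.03, limma adjusted p = 3.64e-06) was the largest rise among the filament genes tested. All 14 skeletal muscle markers were higher, with a median of 1.04 and a range of 0.39 to 1.13. The skeletal muscle list summed to 1498 and 1558 FPKM in the wild type and 3091 and 3176 FPKM in the knockout. The myosin genes Myh8 (1.12) and Myh3 (1.02), the creatine kinase gene Ckm (1.06) and the actin gene Acta1 (0.90) had the lowest p-values of the list. Of 10 smooth muscle and pericyte markers 9 were higher, with a median of 0.46, and the pericyte receptor gene Pdgfrb (0.70) had the lowest p-value. Myocd, at a mean of 0.77 FPKM in the wild type, passed the filter only through the knockout libraries. The summed level of the 10 markers was 184.1 and 183.7 FPKM in the wild type and 255.4 and 252.3 FPKM in the knockout. The exception was the calponin gene Cnn1 (−0.35, adjusted p = 0.0235), which was not past the threshold in 5 of 11 alternatives, among them the omission of either wild-type library or of knockout replicate 1. Des thus lay between the medians of the muscle lists, and the part of muscle in its level was not tested. The ratio of Des to Vim rose from 0.096 and 0.095 to 0.111 and 0.111, a difference of 0.22 in the log2 ratio (SD 0.008 and 0.003, n = 2). The genes nearest to Des in pattern were the aquaporin gene Aqp3 (distance 0.022) and the imprinted gene Mest (0.022), and the antisense gene Gm15179 overlaps the 3' end of Des.

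With these changes the order of the filament genes was rearranged. In the wild type Bfsp1 had the highest mean level (436.1 FPKM), followed by Vim (417.3), Bfsp2 (369.6), Ina (75.1), Nefl (54.6), Des (39.7), Nefm (36.0), Nes (23.2), Gfap (12.8) and Nefh (0.84). In the knockout Vim came first (622.0 FPKM), followed by Des (69.1), Ina (60.7), Nes (33.2), Bfsp1 (31.9), Bfsp2 (28.3), Nefl (26.4), Nefm (24.0), Gfap (0.74) and Nefh (0.60). Neighbours in the order did not overlap between libraries, except Gfap and Nefh in the knockout. The summed level of the 10 genes went from 1470 and 1460 FPKM to 888.8 and 905.1 FPKM. Bfsp1 and Bfsp2 made up 55.1% and 54.9% of that sum in wild-type eyes and 6.91% and 6.53% in knockout eyes, while the share of Vim went from 28.5% in both to 69.2% and 69.5%. Without the beaded filament genes, the sum of the other 8 was higher in the knockout, at 827.4 and 846.0 FPKM against 660.9 and 658.3 FPKM. That rise was carried by Vim, and with Vim left out as well the sum of the other 7 was lower in the knockout, at 212.3 and 217.1 FPKM against 242.1 and 242.4 FPKM. The shares of the neuronal filament genes were similar, 11.3% and 11.4% against 12.4% and 12.5%, but of a smaller sum in the knockout. Nefl, Nefm and Ina were themselves lower there.

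**Figure D4:**
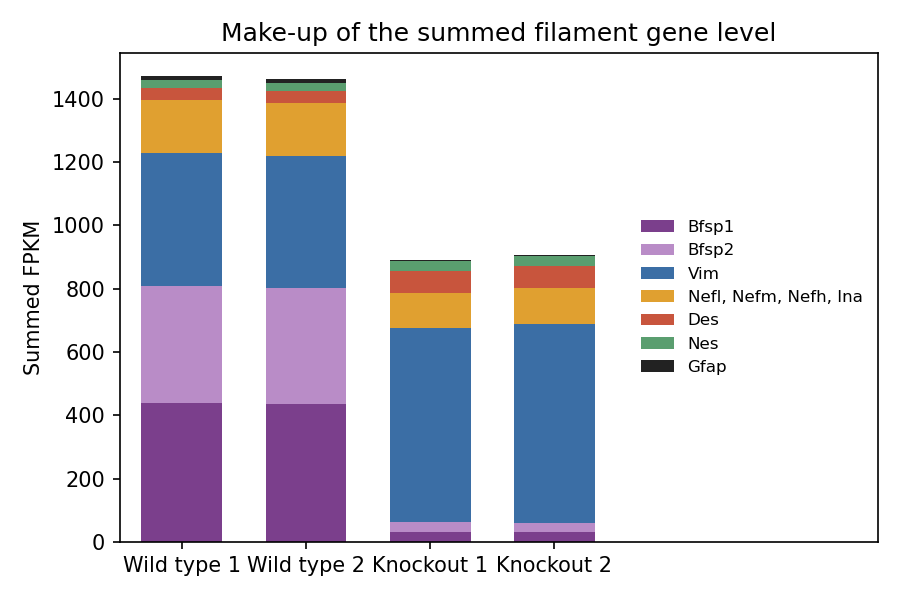
Summed FPKM of the 10 filament genes in each library, split by gene, with the 4 neuronal filament genes joined. The beaded filament genes hold over 54% of the bar in the wild type and under 7% in the knockout, where Vim holds about 69%.

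Other filament genes moved in both directions. Of 6 further non-keratin filament genes, with the nuclear lamins, 5 were tested, of which 2 were higher, 2 were lower and 1 was not past the threshold. These counts describe few genes, where 33.5% of all genes tested were higher and 21.1% lower. Synm encodes synemin, a large partner of vimentin and desmin. Synm stood at 12.28 and 13.10 FPKM for the wild type, against 3.92 and 3.75 FPKM in the knockout, a log2 fold change of −1.50 (SE 0.06, limma adjusted p = 3.29e-06), opposite in sign to those of Vim and Des. Sync, the syncoilin gene of muscle, rose from 1.92 and 1.88 FPKM to 2.93 and 3.38 FPKM (0.52, adjusted p = 0.00212). Lmna, the A-type lamin gene of mature and mechanically loaded cells, rose from 54.16 and 49.73 FPKM to 102.62 and 102.45 FPKM (0.97). Lmnb1, a B-type lamin gene, fell by 0.43. Lmnb2 (−0.10, adjusted p = 0.0854) did not pass, and Prph, the peripherin gene of peripheral neurons, was below the level tested, at 0.79 and 1.10 FPKM for the wild type, against 0.88 and 0.49 FPKM in the knockout.

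Genes that anchor or cross-link intermediate filaments were more often higher. Of 14 linkers and anchors 13 were tested, 8 were higher, 1 was lower and 4 were not past the threshold, with a median of 0.37. Among all genes tested, 33.5% were higher and 21.1% lower. The desmosomal plaque gene Dsp rose from 12.31 and 12.51 FPKM to 25.45 and 25.27 FPKM. The muscle filamin gene Flnc (0.94), the nexilin gene Nexn (0.94) of striated muscle and the periplakin gene Ppl (0.66) rose as well. The exception was the desmosomal gene Pkp2, which fell from 5.22 and 5.01 FPKM to 3.25 and 3.37 FPKM (−0.50). Several of these genes are known from surface epithelium, whose 10 markers were higher in 9 cases, with a median of 0.88 and a summed level of 655.1 and 680.8 FPKM in the wild type and 1255 and 1261 FPKM in the knockout. Perp (0.90) and the keratin genes Krt15 (1.02), Krt14 (0.87) and Krt5 (1.03) had the lowest p-values of the list, and the corneal keratin gene Krt12 (−0.24) fell. The part of epithelium in the linker values was not tested.

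**Figure D5:**
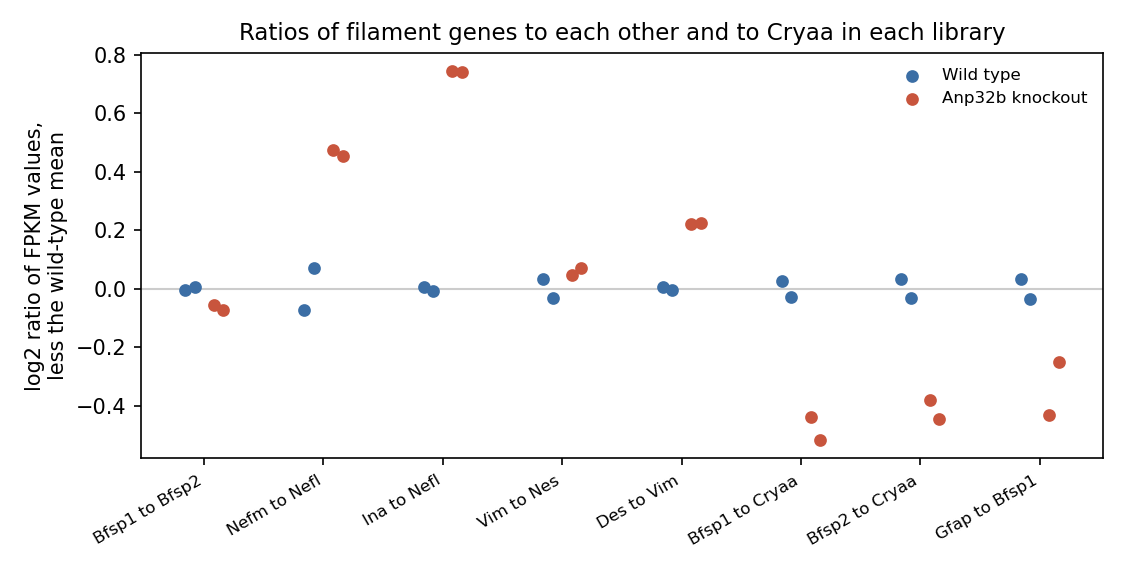
Log2 ratio of FPKM values for 8 gene pairs in each library, less the wild-type mean of the pair, so that wild-type points (blue) lie around 0. The knockout points (red) of Nefm and Ina to Nefl lie 0.46 and 0.74 higher on average, those of Bfsp1 to Bfsp2 lie 0.06 lower, and those of Vim to Nes lie 0.06 higher.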

How the data were processed

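Each library has a table of FPKM and TPM values made by the authors, per the file headers, and the TPM columns all have the same sum. Per the submitters' processing notes, Cufflinks, DESeq, HISAT2 and TopHat were used with the builds GRCm38 and GRCh38, without roles. The sources used here do not say what made the values, from which annotation or with what handling of strand. Because FPKM is relative to all fragments of a library, losing very abundant transcripts lifts the values of all others.

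Entrez numbers restored 26 symbols that appeared as dates. Genes averaging at least 1 FPKM were compared on log2(FPKM + 1), using the variance trend of limma 3.58.1 (R 4.3.3) and genotype alone (2 residual and 4.89 prior degrees of freedom), in two-sided tests with Benjamini-Hochberg adjustment at 0.05. The code was tested on simulated data. Depths are estimates from the spacing of low values of genes with 1 transcript. At the depth that gave the highest share, 58.0% to 65.1% of 218 to 242 values lay within 0.15 of a whole fragment. Chance would give 30% at 1 fixed depth, and more at the best of the many depths tried. The share was too low to recover read counts. The values were selected with an assumed depth close to these estimates, so the depths are approximate. Positions come from GENCODE M21 and RefSeq annotations of GRCm38. The filament genes and the 11 marker lists were chosen with earlier results of these data known. Named genes were all filament genes, Anp32b, up to 4 members of each list with the lowest p, members that moved against their list, and the 2 nearest genes in pattern; some are not reported here. Alternatives were TPM, a pseudocount of 0.1, a filter of 5 FPKM in 2 libraries or none, 2 rescalings of FPKM, a replicate block, a log2 fold change of at least 1 and the omission of each library. The ratios of Gfap to Bfsp1 and to Cryaa, of Ina to Nefm and of Bfsp1 to Vim, and the chromosomal neighbours, were added after seeing the data.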

Additional observations from a re-analysis of the deposited data

How the results depend on the processing

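All 9 tested filament genes kept their direction and stayed past the threshold under the 11 alternatives that refit the data, with adjusted p at most 0.00964 (Ina without knockout replicate 1). Log2 fold changes ran from −3.81 to −3.63 for Bfsp1, −3.74 to −3.57 for Bfsp2, −3.94 to −2.95 for Gfap, −1.10 to −0.92 for Nefl, −0.64 to −0.46 for Nefm, −0.38 to −0.19 for Ina, 0.42 to 0.63 for Nes, 0.49 to 0.70 for Vim and 0.70 to 0.91 for Des. With a log2 fold change of at least 1 required, 0 filament genes were higher and 4 lower, and over all genes 211 were higher and 115 lower, in place of 4654 and 2932. With TPM 7182 genes were higher and 1721 lower (80.7% of calls higher, against 61.3%), and the median log2 fold change of all genes moved from 0.04 to 0.16. When crystallin and erythroid genes were left out of library scaling 3533 were higher and 4330 lower (44.9% higher), and by median of ratios 3936 and 3685 (51.6% higher). Relative to the median of all genes, Ina was −0.34 with FPKM and −0.34 with TPM, and Vim 0.52 to 0.55 over all settings. Replicate numbers carry no stated pairing. With the replicate block 4781 genes were higher and 3047 lower, and no filament gene changed its call; deviations of same-numbered libraries correlated at 0.044. Leaving out each library gave 3373 to 3937 higher and 2042 to 2288 lower genes. The estimated depth, 17860000 to 18380000 fragments, and 2 libraries a group limit what can be said of Nefh.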

Other observations

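The genes next to the filament genes on the chromosomes went both ways. Taking the 2 nearest tested protein-coding genes on each side of each of the 10 genes gave 36 neighbours, of which 13 were higher, 8 were lower and 15 were not past the threshold in limma, against 33.5% higher and 21.1% lower among all genes tested. Their median log2 fold change was −0.04 and their range −0.97 to 0.83. St8sia6, beside Vim and higher, had a wild-type mean of 0.895 FPKM and passed the filter only through the knockout libraries. Beside Bfsp1, the prohormone convertase gene Pcsk2 (−0.05, adjusted p = 0.658) and the actin-severing gene Dstn (−0.02, adjusted p = 0.523) were not past the threshold, and Rrbp1, a ribosome-binding protein of the endoplasmic reticulum, rose by 0.83. Beside Bfsp2, Cdv3 (−0.06, adjusted p = 0.146) and Tmem108 (−0.16, adjusted p = 0.0949) were not past the threshold. Beside Gfap, the mitotic kinesin gene Kif18b (−0.25) and C1ql1 (−0.54) fell by far less than Gfap. The largest fall among the neighbours was that of Dock5 (−0.97, from a mean of 6.43 FPKM to 2.80 FPKM), which lies 331.9 kb from Nefl by start positions.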
